A study of Rattus norvegicus with 6 samples.

Results

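REST binding was measured by ChIP-seq in HCN cells, and the loci described here are those at which several REST sites were annotated to 1 gene. The members were selected on the iQNP peak calls themselves: a site was kept when its annotated gene name was present, was not a date and was shared by at least 2 distinct iQNP sites. Of 1775 iQNP sites, 650 (36.6%) met this rule, and they fell to 260 of the 1363 genes with any named site (19.1%). The other sites comprised 1103 that were the only one of their gene, 17 without a gene name and 5 whose name had been turned into a date. A gene name here is only the gene whose transcription start site (TSS) lay nearest in the rn4 rat annotation, so a site can lie in or beside another gene.

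HCN is a single cloned line of adult hippocampal neural progenitors from the Fisher 344 rat. Cells kept in FGF2 alone stood for transit-amplifying progenitors (TAP), and cells given BMP4 together with FGF2 stood for induced quiescent neural progenitors (iQNP). Each condition had 1 ChIP library with a commercial REST antibody, 1 with a mixture of the homemade antibodies REST14 and REST17, and 1 input library. The antibodies are the only replicates, and nothing shows whether their chromatin came from separate cultures. Depth, in units of 1000000 tags, was 28.3 and 29.8 for the iQNP ChIP libraries and 25.7 and 25.2 for TAP. Where a pair of tag values is given for a site, the first is from the commercial antibody and the second from the homemade mixture. The peak tables number the libraries 1 and 2, and these numbers were matched to antibody 1 (commercial) and antibody 2 (homemade) of the labels. Peaks were called against input and kept where both antibodies called them.

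REST, also called NRSF, is a zinc finger repressor that binds the RE1 element and recruits corepressors such as CoREST and histone deacetylases. Its targets are largely neuronal genes, for ion channels, synaptic vesicle proteins, receptors and neuronal microRNAs, and in neural progenitors it holds them at low expression until the cells differentiate. RE1 elements lie in promoters, introns and far from genes, and 1 gene can have several of them.

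The RE1 element was looked for where a member site lay at a promoter. RefSeq promoters of the GRCr8 assembly (250 bases before to 50 after the start) were available for 18 of the 21 genes with a site in that window, and both strands were searched for CAGCACCNNGGACAG, the central letters of the RE1, with N for any base. At most 1 of the 13 compared letters differed in 5 of these 18 promoters (27.8%), against 75 of all 33469 RefSeq promoters (0.224%). These 5 matches are shown because each lies in the promoter of a gene with a REST site near its start and a further site elsewhere. Capitals mark the letters that match the search.
Vwc2l: attcctCAGCACCacGGACAGcgccaa
Vgf: cggcttCAGCACgctGGACAGcgcccg
Rph3a: ggcagtCAGtACCacGGACAGcaccag
Celsr3: tccattCAGCACCgtGGgCAGcacttc
Lhfpl5: gcgtttCAGCACCgcGGcCAGcgccag
In GRCr8 the stretches lie at chr9:79702893-79702919 on the minus strand for Vwc2l, chr12:25277017-25277043 on the plus strand for Vgf and chr12:41203315-41203341 on the minus strand for Rph3a. Those of Celsr3 and Lhfpl5 lie at chr8:118409013-118409039 on the plus strand and chr20:6633976-6634002 on the minus strand. The match was centred 10 bases before the RefSeq start for Vgf, where the deposited site was centred 2 bp before the annotated TSS, and 234 bases before it for Rph3a, where the site was centred 244 bp before. For Celsr3 the match and the site were 110 and 97 before their starts, for Lhfpl5 69 and 72, and for Vwc2l the match was 48 bases before and the site 16 bp after. The starts come from different assemblies, so these distances are set side by side only.

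At Vwc2l, the promoter with no mismatch, the site near the start had 51.4 and 33.6 normalised tags in iQNP, tags being scaled to 10000000 per library. The Vgf promoter site had 103.9 and 78.9, and the Rph3a promoter site 61.0 and 51.7. These 3 sites were also called in TAP, while those of Celsr3 (29.4 and 15.1) and Lhfpl5 (26.3 and 12.8) were not. The other 13 promoters had 3 or more mismatches in their best match, and 3 of them had a site called in TAP: Tph2, Unc13a and Tnni3k. A match is a description of these letters and not evidence of binding, and its absence says nothing about REST.

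Most genes had exactly 2 sites, 185 of 260 (71.2%). A further 47 had 3, 13 had 4, 9 had 5 and 4 had 6, while Slc15a4 had 7 and Kcnk9 had 11. The sites just outside the rule, at genes with 1 site, had a median of 16.4 normalised tags (mean of both antibodies), those of genes with 2 sites 19.5 and those of genes with 3 or more 21.7. No test is given for these counts, because the calls that they count chose the members.

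**Figure D1:**
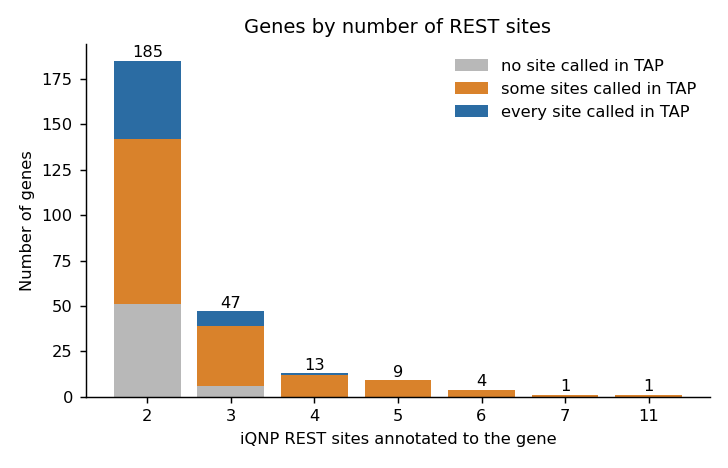
Number of genes (vertical axis) by the number of iQNP REST sites annotated to them (horizontal axis), with colours for how many of these sites were also called in TAP. Of 185 genes with 2 sites, 51 had none called in TAP and 43 had both, whereas all 15 genes with 5 or more sites had some but not every site called.

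Kcnk9, the gene of a two-pore potassium channel, had the most sites, 11 across 1.49 Mb of chromosome 7. Its strongest site, at 110287868 to 110287922 in rn4 and 20.3 kb upstream of the TSS, had 290.2 and 185.0 normalised tags. The other 10 sites lay between 10.4 and 40.3 in the mean of both, so that the locus held 1 site 5.90 times above the next. The site had 168.4 and 117.1 tags in TAP. Of the weaker Kcnk9 sites 3 were also called in TAP, and these were the next 3 by iQNP tags. The pair closest together among all members was here, 423 bp apart and 700 kb from the TSS, and neither of these sites was called in TAP.

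Igsf21, a synaptic adhesion gene, and Ptp4a3, a phosphatase gene, had the same shape as Kcnk9. The strongest Igsf21 site had 327.8 and 185.0 tags in iQNP and 139.6 and 100.8 in TAP, 4.68 times its second site in the iQNP mean. The strongest Ptp4a3 site had 180.6 and 118.2 in iQNP and 100.3 and 82.2 in TAP, 4.39 times its second. At Brd1, which encodes a chromatin reader, Sorcs3, a neuronal sorting receptor gene, Podxl and Sgsm1 the strongest site was instead no more than 1.17 times the second. Psma7, a proteasome subunit gene, had 5 of its 6 sites called in TAP, the most of any gene, and all 6 lay between 363 and 768 kb from its TSS.

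Nrxn3, which encodes a presynaptic neurexin, differed from these in that its sites ran through the gene. Its strongest site was 13.0 kb upstream of the TSS, with 93.6 and 64.5 tags in iQNP and 43.9 and 31 in TAP. The other 5 were intronic, the farthest 972 kb downstream, and 2 of them were called in TAP. Over the 15 genes with 5 or more sites, 72 of 87 sites were intergenic, 15 were intronic and 68 lay over 100 kb from the TSS. Of these 87 sites 41 (47.1%) were called in TAP.

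**Figure D2:**
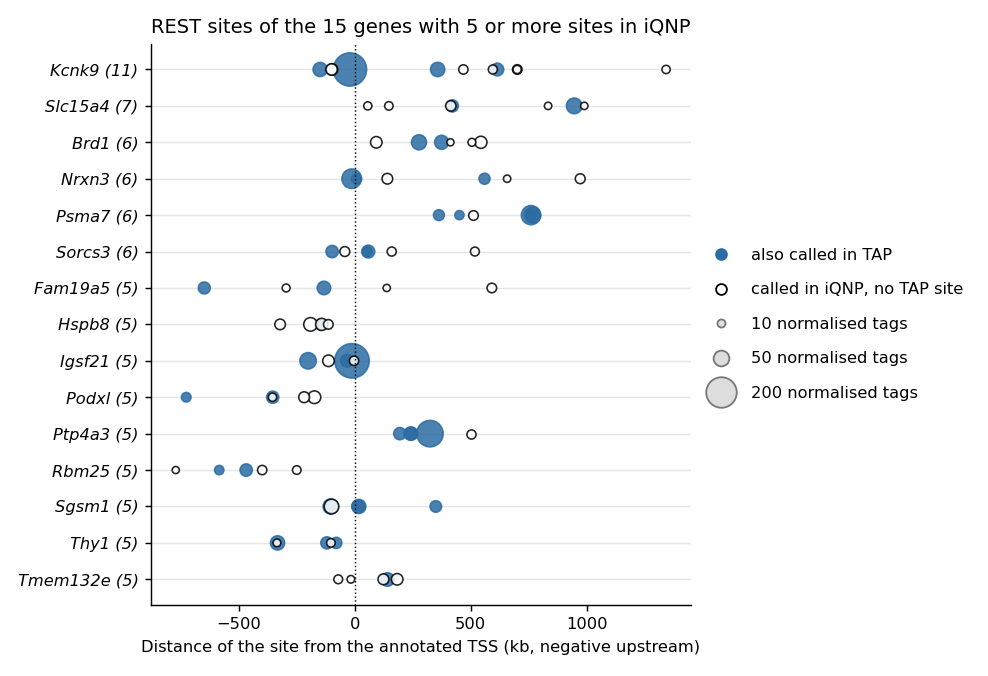
Position of each site relative to the annotated TSS in kb (horizontal axis) for the 15 genes with 5 or more iQNP sites (rows, number of sites in brackets); point area grows with iQNP normalised tags and filled points were also called in TAP. Kcnk9, Igsf21 and Ptp4a3 each have 1 large filled point, and the open points are mostly small.

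Sites of a gene were usually far apart compared with their own width. Over the 389 pairs of neighbouring sites on the same chromosome the median spacing was 53.7 kb (95% binomial interval of the median 40.8 to 69.8), with quartiles of 14.4 and 163 kb. Spacing was below 10 kb in 78 pairs (20.1%) and below 1 kb in 7 (1.80%). Only 2 pairs were over 1 Mb apart, those of Cntnap5b and Grm7, and the Cntnap5b pair was separated by 5.42 Mb. The sites annotated to Unc13a were on different chromosomes, 12 and 16, so the name does not stand for 1 locus there and no spacing is given.

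The closest pairs had both sites in TAP, 1 or neither. Besides Kcnk9, the nearest were Slco2b1 (627 bp), Vamp3 (704 bp), Zdhhc22 (718 bp) and Zfp638 (798 bp). The close Slco2b1 sites had 29.4 and 25.2 against 24.5 and 14.8 tags in iQNP, and both were called in TAP. At Vamp3, the gene of a vesicle-associated membrane protein, the close sites differed widely. The one that was called in TAP had 50 and 31.6 tags, and the one that was not had 7.45 and 8.73. The Zfp638 pair, with 17.4 and 19.8 against 10.3 and 9.07 tags, was not called in TAP.

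Neighbours within 10 kb were both called in TAP in 26 of 78 pairs (33.3%), neighbours 10 to 100 kb apart in 48 of 176 (27.3%), and those 100 kb or more apart in 27 of 135 (20%). In each of these classes the stronger site of a pair had a median of 1.72 to 1.78 times the tags of the weaker, so the size of the difference was alike at all 3 spacings. Pairs from 1 gene share sites, and no test was made between the classes.

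Members lay farther from the TSS than sites that were alone at their gene. The nearest TSS gave both this distance and the gene name by which members were chosen, so the contrast is not independent of the rule. Their median distance was 79.5 kb, against 15.7 kb for single sites, and 290 of 650 (44.6%, 95% Wilson interval 40.8 to 48.5) were over 100 kb away, against 271 of 1103 (24.6%, 22.1 to 27.2). The promoter-TSS class held 33 members (5.08%, 3.64 to 7.04) and 227 single sites (20.6%, 18.3 to 23.1). Introns held 192 members (29.5%) and intergenic sequence 404 (62.2%).

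Sites lay on both sides of the TSS in 95 of 260 genes, all of them over 100 kb from it in 57, and at least 2 within 10 kb in 32. In 6 genes the distances were measured from more than 1 TSS. Among the 32 with sites close by were Celsr3, a cadherin gene, Chga and Vgf, genes of neuroendocrine secretory granules, Elavl2 and Elavl3, genes of neuronal RNA-binding proteins, and Npas4, an activity-dependent transcription factor gene. Celsr3 had its promoter site and, 1.13 kb away in an exon, a site with 123.8 and 73.9 tags in iQNP and 94.1 and 71.9 in TAP. The Vgf promoter site had 63.0 and 51.6 tags in TAP, and a second site 932 bp away in an exon had 56.0 and 32.9 in iQNP and 15.2 and 10.3 in TAP. Chga had 30.9 and 22.8 tags at its upstream site and 27.3 and 15.8 at its intronic site, and both were called in TAP.

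The strongest site held from one antibody to the other in most genes, and the order of the other sites was not compared. The site with the most tags was the same with both antibodies in 224 of 260 genes (86.2%, 81.4 to 89.8). In the 36 others the strongest site had a median of 1.10 and at most 1.41 times the tags of the second. The strongest site had a median of 27.9 normalised tags and the weaker sites 14.8, and the median log2 ratio of strongest to second was 0.70 (0.72 by each antibody alone). When sites were ranked by the commercial antibody and tags were read from the homemade library, this median was 0.69, so choosing and measuring with the same tags moved it by little. At Nrg1 the first and second sites had equal means.

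The strongest site was over 2 times the second in 96 genes and over 4 times in 31, and in 64 the pair lay within 1.25 times. Phf21b, which encodes a PHD finger protein, had the widest range, with 300.1 and 194.4 tags at an intronic site against 9.22 and 7.72 at the weakest of its 3 sites, a ratio of 29.2 in the mean. Rbfox3, the gene of the neuronal nuclear marker NeuN, had 209.3 and 137.0 at its strongest site and 11.0 and 6.72 at its weakest. Vamp3 had 207.5 and 125.2 at the strongest.

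The 5 genes with the highest strongest site were Tll1, Npas4, Igsf21, Cacng2 and Phf21b. The Npas4 site in an intron 639 bp from the TSS had 326.0 and 201.8 tags in iQNP and 217.0 and 146.5 in TAP, and its second site 3.18 kb away had 44.0 and 26.2 and no TAP call. Cacng2, the gene of the AMPA receptor regulator stargazin, had 316.1 and 191.0 tags 1.00 kb upstream of the TSS and 61.7 and 42.0 in an intron, with both called in TAP. The Tll1 pair had 629.7 and 454.9 tags at its stronger site, but its scaled input was 102 tags against a median of 2.90 over all iQNP sites, and its fold over input was 17.7 and 13.2. Scaled input over 10 times that median occurred at 5 member sites, of Tll1, Cpe and tGap1, and the Cpe site with the most input had a fold over input of 5.58 and 4.42.

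The strongest site was often not the one nearest to the gene. It was the nearest in 99 of 185 genes with 2 sites (53.5%, 46.3 to 60.6) and in 19 of 75 genes with 3 or more. The more sites a gene has, the fewer of them can be its nearest, so these shares are not comparable between the groups. The median distance to the TSS was 69.2 kb for strongest and 90.8 kb for weaker sites.

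**Figure D3:**
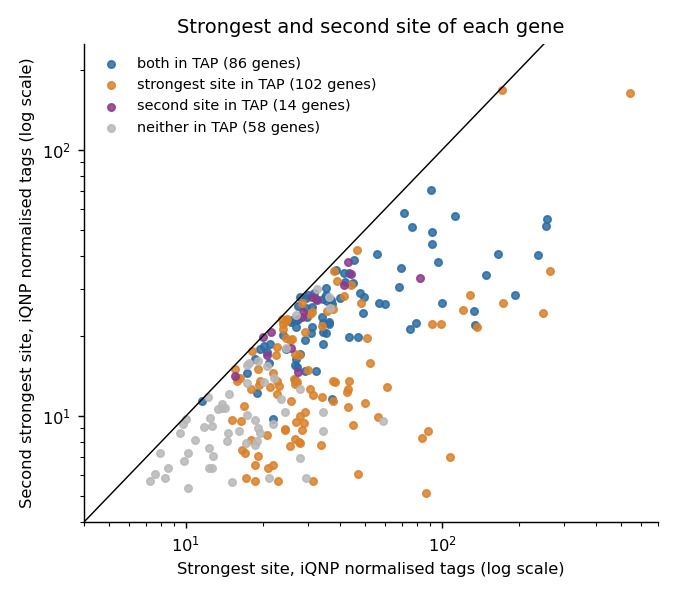
Normalised tags in iQNP (mean of both antibodies, log scales) of the strongest site of each gene (horizontal axis) and of its second site (vertical axis), with colours for which of them was called in TAP; the line marks equality. Both were called in 86 genes, the strongest without the second in 102, the second without the strongest in 14 and neither in 58.

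The TAP calls were not used to choose members, and they showed how the sites of a gene divide between the conditions. A TAP site with its centre within 50 bp was found for 321 of 650 member sites (49.4%, 45.6 to 53.2), against 42.6% of all iQNP sites and 426 of 1103 single sites (38.6%, 35.8 to 41.5). In 52 genes every site was called in TAP, in 57 none was, and in 151 (58.1%) some were. Of these 151 genes, 136 (90.1%, 84.3 to 93.9) had their strongest site among those called. By rank, 188 of 260 strongest sites (72.3%, 66.6 to 77.4), 100 of 260 second sites (38.5%) and 33 of 130 lower ones (25.4%) were called in TAP.

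The share called in TAP rose with tags in members and in single sites alike. It was 0 of 62 members up to 8 tags, which allows a share of up to 5.83% (upper Wilson bound), and 4 of 95 from 8 to 12. Between 12 and 20 tags it was 36% in members and 30.7% in single sites, and between 20 and 50 tags 75.3% and 74.7%. Above 50 tags 49 of 53 members (92.5%, 82.1 to 97.0) and 48 of 60 single sites (80%, 68.2 to 88.2) were called. Within a class the intervals of members and single sites overlapped, while the shares over all classes did not.

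Within each class above 8 tags the strongest sites were called in TAP more often than the weaker ones, with overlapping intervals. From 12 to 20 tags the shares were 45.1% (32.3 to 58.6) and 31.8% (23.9 to 41.0), and from 20 to 50 tags 80.8% (73.8 to 86.3) and 68.8% (60.3 to 76.1). The class from 8 to 12 tags held only 11 strongest sites (1 called), and that over 50 tags only 9 weaker sites (7 called). Sites within a class can still differ in tags, so rank was not separated from tag level. Intervals cover counting error only, and sites of 1 gene are not replicates of a condition.

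**Figure D4:**
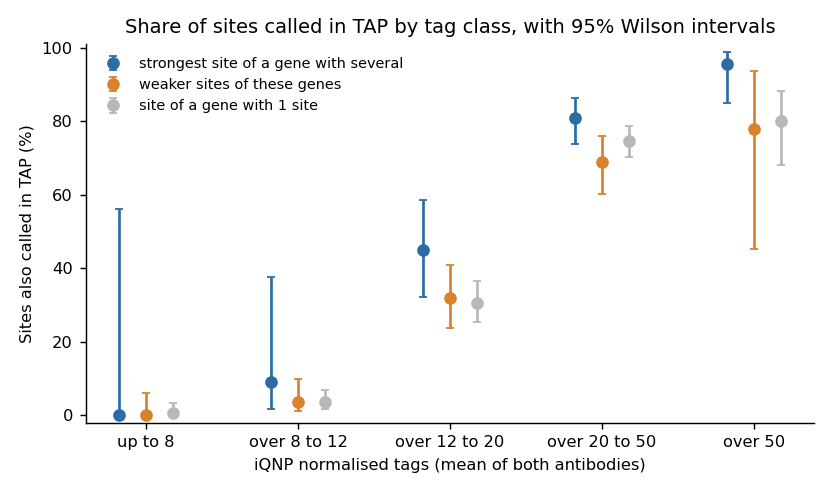
Percentage of iQNP sites also called in TAP (vertical axis) by class of iQNP normalised tags (horizontal axis) for strongest sites, weaker sites and sites that are alone at their gene, with 95% Wilson intervals. All 3 kinds of site go from near 0 below 8 tags to above 75% over 50 tags, and strongest sites are the highest in each class above 8 tags.

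Each site was called in TAP at 9 genes with 3 or more sites: Cdk4, Dmrta2, Fbxo2, Pcsk2, RGD1304567, Rph3a, Slc12a5, Slc32a1 and Slco2b1. Several encode proteins of synapses and secretion, namely Rph3a (rabphilin), Slc32a1 (the vesicular GABA transporter), Slc12a5 (the neuronal chloride transporter KCC2) and Pcsk2 (a prohormone convertase). The strongest Rph3a site had 135.5 and 88.3 tags in iQNP and 49.4 and 44.5 in TAP, and the weakest of its 4 sites 30.9 and 20.5 and then 15.9 and 7.94. The first Slc32a1 site had 107.5 and 75.2 in iQNP and 58.3 and 45.3 in TAP. The 3 Slc12a5 sites lay 2.05 and 10.7 kb apart around the TSS, and the strongest had 66.7 and 45.3 in iQNP and 55.6 and 31.4 in TAP. It was the only 1 of these 28 sites at which the libraries of the conditions overlapped. Such overlap was not counted over all shared sites, so it is not read as particular to these genes.

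**Figure D5:**
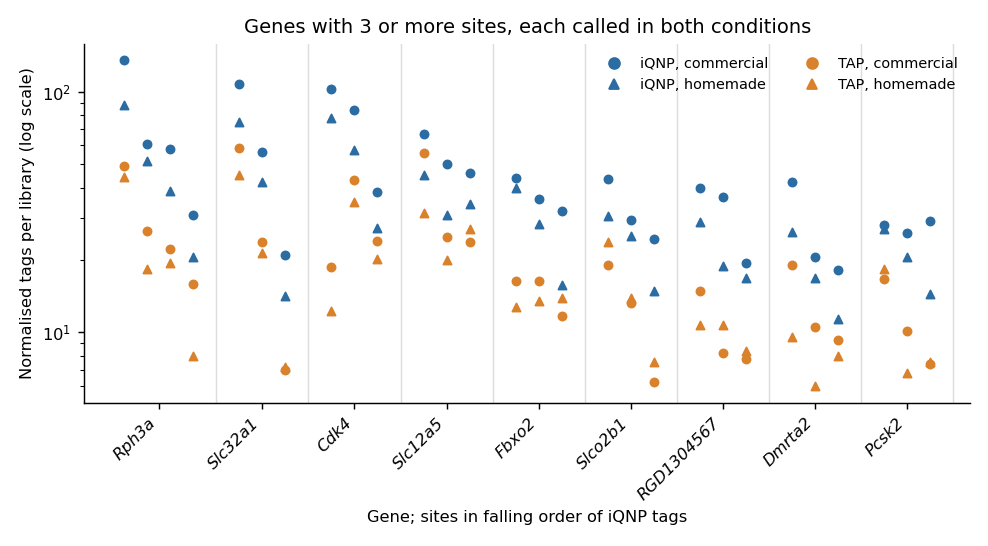
Normalised tags of each library (log vertical axis) at the 28 sites of the 9 genes with 3 or more sites that were all called in both conditions, sites of a gene in falling order of iQNP tags (horizontal axis). Both iQNP libraries were above both TAP libraries at 27 of the 28 sites, and at 301 of all 321 shared member sites (93.8%). The share over all shared sites was not computed.

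None of the iQNP sites had a TAP partner at 6 genes with 3 sites: Chd6, LOC100125362, Nps, Rps15a, Sorcs1 and Tmem178b. Rps15a had a TAP site elsewhere, with no iQNP partner. Their strongest sites lay between 13.5 and 27.7 tags by the commercial antibody and between 6.04 and 19.8 by the homemade ones. The highest of the 6 by both antibodies together belonged to Sorcs1, a neuronal sorting receptor gene, and LOC100125362.

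In 15 genes a weaker site was called in TAP and the strongest was not. At Sec13 the site without a TAP call had 99.3 and 64.8 tags, while the site that was called had 35.5 and 30.6 in iQNP and 13.6 and 10.7 in TAP, and this ratio of 2.48 was the largest of the 15. Hmgb4 and Hspb8 each had 1 site called in TAP, and their strongest site had 1.87 and 1.65 times its tags. Podxl had 2 called sites, and its strongest site, at 31 tags in the mean, had 1.97 times the tags of the weaker one (15.8) but only 1.10 times those of the other (28.1). In the other 11 genes the strongest site had at most 1.42 times the tags of the weakest called site. Among the 92 genes with 2 or more shared sites, 74 (80.4%, 71.2 to 87.3) had the same strongest shared site in iQNP and TAP.

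The TAP table itself had 93 genes with 2 or more sites, and 92 of them were members. Psma7 had the most, 5. Of the TAP sites annotated to member genes 4 had no iQNP partner, at Mir598, Odf3l1, Rps15a and Tcl1a. Over all genes 756 of the 778 TAP sites had such a partner, so these counts are not particular to members.

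At the 321 shared member sites tags were higher in iQNP. On the log2 scale the median difference in normalised tags, iQNP minus TAP, was 1.12 (1.25 by the commercial antibody, 0.97 by the homemade ones, SD 0.20, n = 2), against 1.05 over all 756 shared sites. Both iQNP libraries exceeded both TAP libraries at 301 of the 321 sites (93.8%). That share was not computed over all shared sites, so it is not read as particular to members. The ratio was higher in iQNP with each antibody at 316 (98.4%), against 98.5% of all shared sites, so the shares were close. The median was 1.10 at strongest and 1.17 at weaker sites.

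By edgeR's quasi-likelihood test with Benjamini-Hochberg adjustment over all shared sites, 241 of the 321 member sites (75.1%) had more tags in iQNP, against 68.4% of all shared sites, and 0 had more in TAP (0 also at an unadjusted p under 0.05). The called sites were spread over 172 of the 203 member genes with a shared site. The share of genes was not computed over all shared sites, so this count is not read as particular to members. With the antibody as a block 308 were called higher in iQNP, against a background of 94.8%, and DESeq2 with the same depths called 237, against 67.3%. Without the commercial TAP library edgeR called 0 members (89 at an unadjusted p under 0.05), and without the homemade TAP library 0 (55 unadjusted), while the median log2 ratio was 1.22 and 1.02. In these fits the spread comes from the iQNP libraries alone, and the lone TAP library is assumed to vary like them. Without the commercial or the homemade iQNP library, where the spread comes from the TAP libraries alone, 195 and 306 were called, with medians of 0.87 and 1.35.

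The direction rests on scaling by depth. With TMM normalisation, which sets the bulk of shared sites to no change, the median log2 ratio of members was 0.06, 21 members were called higher in iQNP (background 5.16%) and 19 higher in TAP (background 6.75%). DESeq2 with its own size factors called 2 higher in iQNP and 2 higher in TAP, against 0.397% in each direction. A general difference in ChIP enrichment and a general difference in REST occupancy cannot be told apart in these libraries, and values below are read between sites of 1 gene.

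The largest difference past the threshold was at Cdk4. The sites annotated to this gene, which encodes a cell cycle kinase, were all intergenic. The strongest (chromosome 7, 66592706 to 66592774 in rn4, 424 kb upstream) had 102.9 and 77.9 tags in iQNP and 18.7 and 12.3 in TAP. Its fitted log2 ratio was 2.54 (2.46 and 2.66 by antibody, edgeR adjusted p = 7.98e-05). The other Cdk4 sites had fitted log2 ratios of 0.86 and 0.56 and did not pass (adjusted p = 0.0779 and 0.181). The next largest were at Fam19a5 (2.17), Tnni3k (2.16), LOC500990 (2.15) and Nptx2, a neuronal pentraxin gene (2.04). The other shared sites of Fam19a5, Tnni3k and Nptx2 had log2 ratios of 1.57, 1.52 and 1.48 and also passed, and LOC500990 had no other shared site. Under TMM these 5 sites were still called higher in iQNP, with log2 ratios from 0.99 to 1.49.

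The Vgf sites, 932 bp apart, had unequal ratios. The exonic site had a fitted log2 ratio of 1.79 (adjusted p = 0.000632) and the stronger promoter site 0.68 (adjusted p = 0.171). At Rph3a, by contrast, the 4 sites had log2 ratios of 1.25, 1.21, 1.33 and 1.09, and each passed the threshold. Over the 92 genes with 2 or more shared sites, the log2 ratio of the strongest minus that of the next site had a median of -0.04 and ran from -1.20 to 1.68, so neither rank had the larger ratio in general. These differences between sites were not tested.

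Grouped by function, the share of sites called in TAP differed widely between lists, each read against 49.4% of all members. These lists were written with the gene names and earlier results known, and are descriptions of few sites each, without intervals. Lists also differed in tags. The median strongest site had 38.0 normalised tags for vesicle and granule genes, 36.7 for synaptic adhesion and scaffold genes and 33.2 for cytoskeleton genes, against 27.9 over all members. It had 35.2 for ion channel and 32.7 for microRNA genes, whose shares were 52.8% and 42.9%. The part of tag level in these shares was not tested. The 13 synaptic vesicle and secretory granule genes had 24 of 32 sites called in TAP (75%). Cpe, Vamp3 and Rph3a had the strongest sites of this list, with the input at Cpe as given above. The nearest site lay 561 kb from the TSS of Cpe and 153 kb from that of Vamp3, so these names rest on the nearest TSS only. The 6 neuronal cytoskeleton genes had 9 of 13 (69.2%), and the stronger site of Nefh, the neurofilament heavy chain gene, had 40.8 and 27.5 tags in iQNP and 29.2 and 19.1 in TAP. The 16 synaptic adhesion and scaffold genes had 26 of 41 (63.4%).

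Receptor, channel and transcription factor genes lay nearer to the share of all members. The 9 neurotransmitter receptor genes had 10 of 18 sites called in TAP (55.6%), and in all 9 the strongest site was among them. Glra1, a glycine receptor gene, had 135.2 and 77.9 tags at its promoter and 6.03 and 8.06 at a site 69.0 kb upstream, and the first was called in TAP. The 14 transcription factor genes had 16 of 30 (53.3%), with 0 sites in the promoter-TSS class and 24 intergenic. The 12 ion channel genes had 19 of 36 (52.8%), 18 in introns and 18 intergenic.

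The remaining lists were at or below the share of all members. The 14 axon guidance and adhesion genes had 18 of 38 (47.4%), the 5 RNA-binding protein genes 6 of 13 (46.2%) and the 7 ribosome, translation and proteasome genes 9 of 20 (45%). The last list, which does not hold neuronal genes, had a median distance to the TSS of 395 kb, the farthest of the 10 lists.

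The 10 microRNA genes had 21 sites, of which 9 (42.9%) were called in TAP, and mature sequences in the RefSeq table were matched by symbol for 6 of the genes. The 4 printed here belong to the genes among those 6 with a site called in TAP, with the seed, bases 2 to 8, in capitals. None of their seeds is shared.
miR-9a-5p: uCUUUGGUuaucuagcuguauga
miR-138-5p: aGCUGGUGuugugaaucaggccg
miR-3085: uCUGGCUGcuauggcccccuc
miR-346: uGUCUGCCugagugccugccucu
Mir9-3, for the neural miR-9a, had a site 5.85 kb upstream with 48.6 and 37.3 tags in iQNP and 26.8 and 21 in TAP, and a second site 2.95 kb from it with 13.5 and 8.06 and no TAP call. Mir138-1 had 34.4 and 21.2 at its stronger site, called in TAP, and 9.58 and 10.4 at the other. Mir3085 had the strongest site of the list, 239.4 and 145.0 in iQNP and 150.9 and 123.1 in TAP. The Mir346 sites were close in level, 24.1 and 21.2 against 21.3 and 15.1, and the first alone was called in TAP.

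Mir124-1 and Mir124-3 both encode miR-124, an abundant neuronal microRNA, and divided differently. Mir124-3 had 3 sites, and the one called in TAP was the strongest, 531 bp from the TSS, with 43.3 and 31.6 tags in iQNP and 21 with each antibody in TAP. At Mir124-1 the strongest site, with 49.3 and 33.6 tags, was not called in TAP, while the site 24.7 kb away with 34.1 and 28.2 was. Mir598 had both of its sites called, Mir129-1, Mir135a and Mir30d neither.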

How the data were processed

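The authors used Bowtie2 for alignment to rn4 and HOMER for peaks over input (Poisson p-value limit 1e-04), and joined the peaks of both antibodies where they lay within 50 bp. The deposited tables give per site and library the total tags (counts), normalised tags (a signal scaled by the authors to 10000000 tags), input tags scaled to the ChIP library (a signal), the fold over input (a ratio) and its p-value. Gene names, classes and TSS distances came from the authors' annotation of the same sites. No other per-sample columns were left out (0).

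Sites with centres at most 50 bp apart in iQNP and TAP counted as shared, each used once and nearest pairs first. The strongest site had the highest mean of normalised tags. Depth was total over normalised tags. Total tags at 756 shared sites were tested with edgeR 4.0.16 (quasi-likelihood, with depths for library sizes and no term besides condition) in R 4.3.3, with DESeq2 1.42.0 as an alternative, after tests on simulated data. With 2 libraries against 2, an exact permutation test cannot go below 1 in 3, and p-values measure only the spread between these libraries, which may be technical. The replicate number is the antibody in both conditions. The correlation of the antibodies' deviations from the condition means was 0.0445 over shared sites, and edgeR's coefficient of variation between libraries was 0.21, or 0.090 with the antibody as a block. Shared sites leave out those without a TAP call, and the effect of that on the ratios was not tested. RefSeq promoters were matched by symbol for 176 of 260 genes.

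The members and the 10 gene lists were chosen with earlier results of these data known. Genes named are those with 5 or more sites, the 5 with the strongest site, closest pair or widest range of tags, those with 3 or more sites all or none of which were called in TAP, microRNA genes, the top 3 of each list and the 5 largest differences. Genes with a match in their promoter, Sec13 and others without a TAP call at the strongest site, and those given as examples near the TSS were added after their values were seen. Alternatives were stricter peak limits, other pairing distances, sites within 1 kb counted as 1, sites within 100 kb of the TSS, rank by fold over input, single antibodies or libraries, and other normalisations. Wilson intervals are at 95%. The longest run of neighbouring sites is not reported here.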

Additional observations from a re-analysis of the deposited data

How the results depend on the processing

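Of 78 alternative values, 53 stayed within the limits of the reported ones, 25 moved and 0 reversed. Limiting sites to 100 kb from the TSS left 135 genes and 292 sites, with 55.1% of sites called in TAP, 30 genes with none called, a median spacing of 16.4 kb and 68 genes whose strongest site was nearest. A fold over input of at least 8 gave 43.0% of sites called in TAP, 60.0% of strongest sites and 33 genes with every site called; a p-value of at most 1e-10 gave 66.5% of strongest sites. With centres within 25 bp the shares called in TAP were 40.9% of sites, 63.8% of strongest and 25.6% of weaker sites. Ranked by fold over input they were 63.5% and 40.0%, and the log2 ratio of strongest to second was 1.06. That ratio was 0.69 with sites within 1 kb counted as 1, and 0.72 with either antibody left out. Strongest sites stayed more often called in TAP than weaker ones under each alternative run.

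TMM gave 21 shared sites with more tags in iQNP and a median log2 ratio of 0.06, DESeq2 with its own size factors gave 2, and fold over input gave a median of 0.77. Leaving out 1 library gave 0 to 306 such sites. The antibody as a block gave 308 such sites against 241; the numbers pair libraries by reagent only. Leaving out sites of high input, chosen after the data were seen, gave 49.5% of sites called in TAP. Of member sites up to 8 tags in iQNP 0 of 62 were called in TAP, and the reason was not tested. Some sites with more iQNP tags had TAP means below 8, as at Aqp8 (24.9 in iQNP, 6.30 in TAP) and Apob (18.7 and 7.06). Tags in TAP are not known for sites without a TAP call, so these examples do not bear on the 62 sites.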

Other observations

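Sites also gathered across neighbouring genes. When iQNP sites were joined wherever the next lay within 250 kb, 33 runs of 5 or more sites held 199 sites. A run of 8 sites over 429 kb of chromosome 12 was annotated to Taok3 and Hspb8, and 2 were called in TAP. Another of 8 over 748 kb of chromosome 17 was annotated to Unc5a, Sncb, LOC306766, Cplx2 and Hrh2, with 5 called, and 1 of 8 over 616 kb of chromosome 3 held the 3 Slc32a1 sites, 3 of the 4 Dhx35 sites and sites of Snhg11 and Fam83d, also with 5 called.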
